A study of Homo sapiens with 3 samples.

Results

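The genes described here are 6 genes of the acute-phase response, SAA1, SAA2, C3, LCN2, PTX3 and CFB, out of 48162 genes listed in each library. They were chosen by name with earlier results of these data known, their FPKM in these libraries included, so their levels and ratios are given as a description. Of the 6, 4 had a mean of at least 1 FPKM (fragments counted for a gene, scaled to transcript length in kilobases and to library size) over the 3 libraries and count among the 12649 analysed genes. LCN2 and CFB did not reach that mean, and their values are given as listed.

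MDA-MB-231, the line used, derives from a human triple-negative breast cancer, and the cells were grown in medium with 10% fetal bovine serum. The groups were a co-depletion of Geminin and FoxO3, a depletion of FoxO3 alone, and a control, with 1 library of each. All 3 cultures were infected with lentivirus for 24 hours and harvested 72 hours after the medium was changed, so the control had been infected too. What the control virus carried is not known here. FoxO3 is a forkhead transcription factor, and Geminin, encoded by GMNN, restrains the licensing of DNA replication. Since each group is 1 library, differences lack a replicate check, no test between groups was possible, and each is one between 2 libraries. In RNA from a whole culture, fewer cells expressing a gene and less RNA per cell cannot be told apart.

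Acute-phase proteins are plasma and tissue proteins whose output changes in inflammation. Most are made by the liver under interleukin-6 and interleukin-1, through STAT3, NF-kB and C/EBP factors, but epithelial, stromal and tumour cells also make some of them. SAA1 and SAA2 encode the inducible serum amyloid A proteins, lipoprotein-bound attractants of leukocytes. PTX3 encodes a long pentraxin, a soluble pattern recognition protein made at sites of inflammation. C3 is the central protein of complement and CFB the protease subunit of its alternative pathway convertase. LCN2 encodes lipocalin-2, which binds iron-carrying bacterial siderophores.

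The totals behind the FPKM values were 12267332 reads after co-depletion, 10760613 after FoxO3 depletion and 14507410 for the control, so the depleted libraries had 84.6% and 74.2% of the depth of the control. FOXO3 was at 2.94 FPKM after co-depletion, 2.79 after FoxO3 depletion and 12.2 in the control. GMNN was at 37.0 FPKM after co-depletion, 112.2 after FoxO3 depletion and 112.3 in the control. Markers of the line were present, with VIM between 574.3 and 607.3 FPKM and AXL between 480.2 and 534.0, and the hormone receptor genes ESR1 and PGR stayed under 0.12 FPKM, while ERBB2, the third receptor gene that defines a triple-negative tumour, was at 46.8 FPKM after co-depletion, 41.6 after FoxO3 depletion and 38.0 in the control. Ratios varied with the GC content of the transcripts. Among the tenth of genes poorest in GC the median log2 ratio to control was -0.53 after co-depletion and -0.71 after FoxO3 depletion, whereas in the tenth richest in GC it was 0.09 after co-depletion and 0.03 after FoxO3 depletion. The 4 analysed members lie between the fifth and the seventh of 10 bins by GC content, where the medians were between -0.02 and 0.07.

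Both serum amyloid genes and PTX3 were higher in the depleted libraries than in the control, while C3, CFB and LCN2 were low in all 3 libraries and showed no difference beyond counting error. SAA1 (ENSG00000173432, chromosome 11) was at 187.3 FPKM after co-depletion, 207.5 after FoxO3 depletion and 33.0 in the control, from 1434, 1393 and 299 reads. The 2 depleted libraries lay close together and far above the control. The FPKM ratio to control was 5.67 after co-depletion (95% counting interval 5.0 to 6.45) and 6.28 after FoxO3 depletion (5.54 to 7.14). These exact Clopper-Pearson intervals rest on recovered reads, cover counting error only and say nothing of variation between cultures. By level among the 12649 analysed genes SAA1 ranked 667 after co-depletion, 596 after FoxO3 depletion and 4490 in the control.

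SAA2 (ENSG00000134339, chromosome 11) was at 10.5 FPKM after co-depletion, 9.53 after FoxO3 depletion and 2.59 in the control, from 89, 71 and 26 reads. Its FPKM ratio to control was 4.05 after co-depletion (2.59 to 6.53 by counting error) and 3.68 after FoxO3 depletion (2.32 to 6.01). Both depleted libraries were again above the control, and the intervals of SAA2 overlap those of SAA1. On the log2 scale of FPKM + 1, which understates differences of low genes, SAA1 stood at 2.47 and SAA2 at 1.68 after co-depletion, and SAA1 at 2.61 and SAA2 at 1.55 after FoxO3 depletion.

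The 2 serum amyloid genes are near-identical copies, so reads can be placed on either. Of the distinct stretches of 50 bases in the annotated SAA1 transcripts, 46.6% also occur in those of SAA2, and of stretches of 100 bases 28.5%. The other way, 17.9% of the stretches of 50 bases in SAA2 occur in SAA1, since the annotated SAA2 transcripts are longer in total. How the authors placed reads that fit both copies is unknown, so the division between the copies is uncertain. The sum of both copies depends little on that division, as the FPKM values imply similar lengths of 624 and 692 bases. Reads dropped for matching both copies would be missing from it. The sum was 197.8 FPKM after co-depletion, 217.0 after FoxO3 depletion and 35.6 in the control, a ratio to control of 5.55 after co-depletion and 6.09 after FoxO3 depletion. SAA2 took 5.84% of the reads of the pair after co-depletion, 4.85% after FoxO3 depletion and 8.0% in the control. The counting intervals of these shares, 4.72% to 7.14%, 3.81% to 6.08% and 5.29% to 11.5%, overlap.

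The other genes of the serum amyloid cluster on chromosome 11 had no FPKM above 0. SAA4, the constitutive member that the liver expresses, the pseudogene SAA3P and the read-through SAA2-SAA4 were each listed at 0 in all 3 libraries. In the annotation SAA2-SAA4 spans SAA2. How reads that fit overlapping genes were assigned is unknown, so the 0 of the read-through and the level of SAA2 are uncertain to that extent. The transcripts of SAA4 share 0 stretches of 50 bases with SAA1. On the other side of SAA1 the nearest protein-coding gene is HPS5, a subunit of a complex that forms lysosome-related organelles. HPS5 was at 30.7 FPKM after co-depletion, 39.7 after FoxO3 depletion and 22.2 in the control, with log2 ratios to control of 0.45 after co-depletion and 0.81 after FoxO3 depletion.

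**Figure D1:**
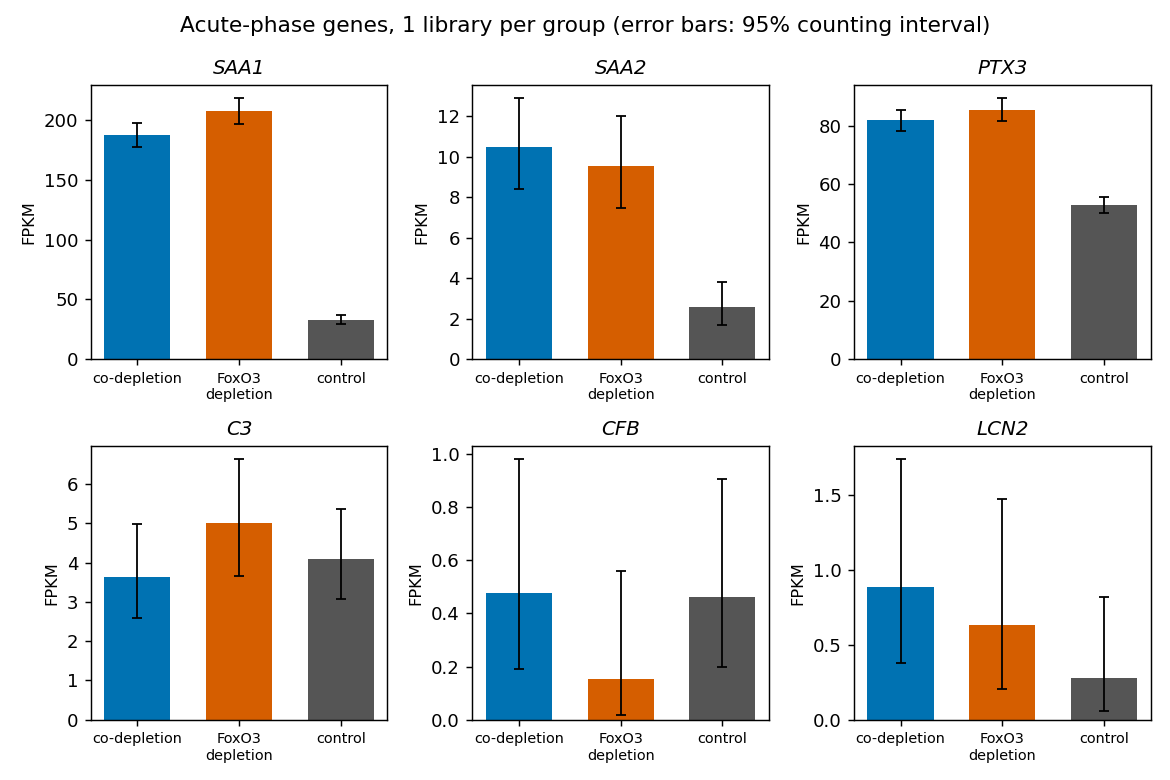
FPKM of each of the 6 genes (vertical axes, each starting at 0) in the co-depleted, FoxO3-depleted and control library, with error bars for the 95% exact Poisson counting interval on the recovered reads. SAA1, SAA2 and PTX3 stand above the control in both depleted libraries with separate intervals, and the intervals of C3, CFB and LCN2 overlap across the 3 libraries.

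PTX3 had the highest level of the 6 in the control and the smallest counting error. PTX3 (ENSG00000163661, chromosome 3) was at 81.9 FPKM after co-depletion, 85.5 after FoxO3 depletion and 52.8 in the control, from 1948, 1785 and 1485 reads. Both depleted libraries were above the control by about the same amount, with an FPKM ratio of 1.55 after co-depletion (1.45 to 1.66) and 1.62 after FoxO3 depletion (1.51 to 1.74). The ratio of SAA1 to PTX3 in FPKM was 2.29 after co-depletion, 2.43 after FoxO3 depletion and 0.63 in the control, so the order of the 2 genes differed between the depleted libraries and the control. In the annotation PTX3 lies within VEPH1, and whether strand was used in counting is unknown. VEPH1 was at 2.27 FPKM after co-depletion, 2.39 after FoxO3 depletion and 5.26 in the control, the opposite direction to PTX3.

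C3 (ENSG00000125730, chromosome 19) was at 3.64 FPKM after co-depletion, 5.0 after FoxO3 depletion and 4.10 in the control, from 39, 47 and 52 reads. The co-depleted library was the lowest and the FoxO3-depleted library the highest. Its FPKM ratio to control was 0.89 after co-depletion (0.57 to 1.37) and 1.22 after FoxO3 depletion (0.80 to 1.84), so no difference was detectable at this depth. The level of C3 depends on the transcript length used. The FPKM values imply a length of 874 bases, close to the mean over 18 annotated transcripts, and on the longest transcript of 5263 bases C3 would be at 0.60, 0.83 and 0.68 FPKM in the same order of libraries. Ratios between libraries do not depend on that length.

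LCN2 (ENSG00000148346, chromosome 9) was at 0.88 FPKM after co-depletion, 0.63 after FoxO3 depletion and 0.28 in the control, from 8, 5 and 3 reads. CFB (ENSG00000243649, chromosome 6) was at 0.48 FPKM after co-depletion, 0.16 after FoxO3 depletion and 0.46 in the control, from 7, 2 and 8 reads. Neither gene showed a difference beyond counting error. The FPKM ratio of LCN2 to control was 3.15 after co-depletion (0.76 to 18.5) and 2.25 after FoxO3 depletion (0.44 to 14.5). That of CFB was 1.03 after co-depletion (0.32 to 3.27) and 0.34 after FoxO3 depletion (0.03 to 1.69). These intervals include 1 and are wide.

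By FPKM, the order in both depleted libraries was SAA1, PTX3, SAA2, C3, LCN2 and CFB. In the control it was PTX3, SAA1, C3, SAA2, CFB and LCN2. The counting intervals of LCN2 and CFB overlap in each library, and those of C3 and SAA2 overlap in the control, so these neighbours are not ordered there. SAA1 made up 65.8% of the summed FPKM of the 6 genes after co-depletion, 67.3% after FoxO3 depletion and 35.4% in the control.

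Of the 6 genes 3 matched the promoter table, and SAA1, SAA2 and C3 did not. The promoters of PTX3, LCN2 and CFB, from RefSeq on GRCh38.p14, are shown because these 3 genes share the textbook control by NF-kB while PTX3 alone of them was well expressed. Each runs from 250 bases before the start site to 50 bases after it, on the plus strand, 5′ to 3′. PTX3 is at chr3:157436600-157436899, LCN2 at chr9:128149203-128149502 and CFB at chr6:31945845-31946144. Capitals mark matches to the NF-kB core GGGNNNNNCC on either strand.
PTX3: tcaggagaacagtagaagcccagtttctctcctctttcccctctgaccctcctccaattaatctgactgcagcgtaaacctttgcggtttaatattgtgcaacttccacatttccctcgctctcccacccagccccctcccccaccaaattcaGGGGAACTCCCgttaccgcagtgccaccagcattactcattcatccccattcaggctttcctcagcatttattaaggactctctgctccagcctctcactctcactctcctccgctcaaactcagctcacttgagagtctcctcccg
LCN2: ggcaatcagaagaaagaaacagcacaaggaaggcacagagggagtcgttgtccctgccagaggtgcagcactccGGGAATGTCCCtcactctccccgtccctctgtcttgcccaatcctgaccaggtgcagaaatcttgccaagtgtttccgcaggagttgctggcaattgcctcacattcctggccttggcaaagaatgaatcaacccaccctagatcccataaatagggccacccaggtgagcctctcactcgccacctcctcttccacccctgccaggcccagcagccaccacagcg
CFB: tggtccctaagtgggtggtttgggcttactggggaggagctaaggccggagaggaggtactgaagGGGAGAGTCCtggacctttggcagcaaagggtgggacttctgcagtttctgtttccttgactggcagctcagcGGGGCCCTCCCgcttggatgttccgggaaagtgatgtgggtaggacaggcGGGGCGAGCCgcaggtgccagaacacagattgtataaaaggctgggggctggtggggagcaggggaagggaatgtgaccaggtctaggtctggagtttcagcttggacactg
The PTX3 window holds 1 such stretch, of 11 bases, made of overlapping matches that begin 97 and 96 bases before the start site. The LCN2 window also holds 1 stretch, made of a forward match that begins 176 bases before the start site and an overlapping reverse match. The CFB window holds 3 stretches. The motif is loose, and 58.7% of the 35116 promoters in the table hold a match.

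Other motifs, also searched on both strands, were rarer in these windows. The C/EBP core TTNNGNAA matched once in PTX3 and once in LCN2, the STAT core TTCNNNGAA once in CFB and the AP-1 core TGANTCA once in LCN2. These motifs occur in 36.8%, 7.66% and 7.71% of all promoters in the table. The FOXO core TGTTTAC was matched in 0 of the 3 windows, against 3.42% of all promoters. A match is a description of the letters and not a binding site.

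Members were counted where FPKM + 1 differed at least 1.5-fold, with no test. After co-depletion 3 of the 4 analysed members, SAA1, SAA2 and PTX3, were at least 1.5-fold higher than in the control and 0 were lower. Of all 12649 analysed genes 4.02% were higher and 12.3% lower by that rule. After FoxO3 depletion the counts were again 3 higher and 0 lower, beside 4.0% of all genes higher and 16.7% lower. The genes were chosen with these contrasts known, so nothing is read from the counts. The median log2 ratio of the 4 members was 1.15 after co-depletion, beside -0.06 for all analysed genes, and 1.12 after FoxO3 depletion, beside -0.07. Both comparisons use the same control library. Ranked from the highest log2 ratio, SAA1 was second, SAA2 rank 7 and PTX3 rank 424 after co-depletion. After FoxO3 depletion SAA1 was first, SAA2 rank 16 and PTX3 rank 321. C3 was at rank 7314 after co-depletion and 2645 after FoxO3 depletion. After adjustment for GC content SAA1, SAA2 and PTX3 stood at 2.42, 1.63 and 0.66 after co-depletion and at 2.57, 1.47 and 0.67 after FoxO3 depletion.

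**Figure D2:**
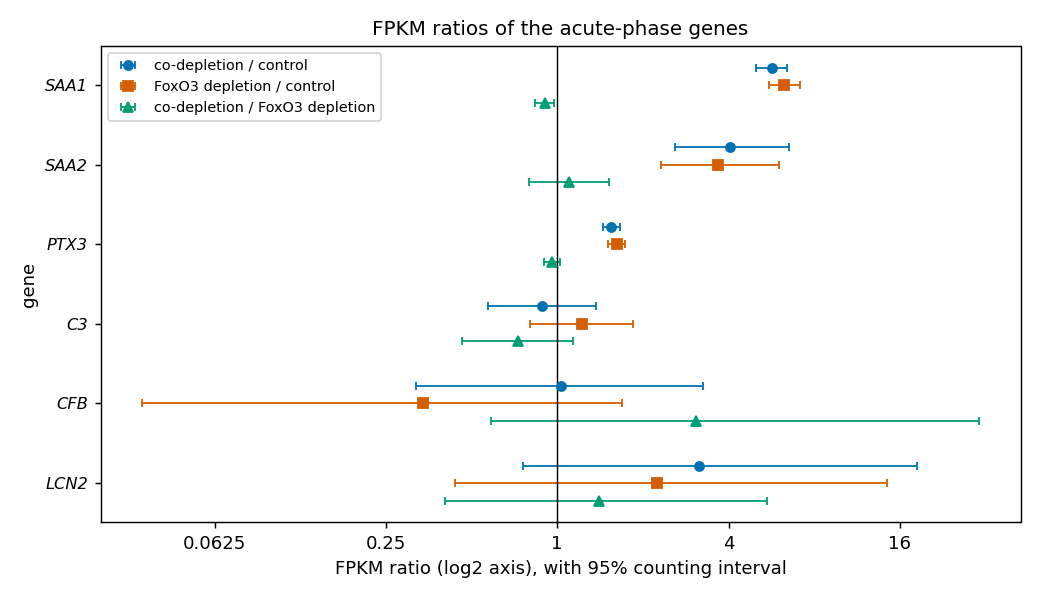
FPKM ratios of the 6 genes (horizontal log2 axis) for co-depletion over control, FoxO3 depletion over control and co-depletion over FoxO3 depletion, with 95% exact counting intervals. SAA1, SAA2 and PTX3 lie right of 1 in both comparisons with the control, and the green triangles of the direct comparison lie near 1 for these genes.

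The direct comparison of the depleted libraries asks what the loss of Geminin adds to that of FoxO3. None of the 4 analysed members passed 1.5-fold in either direction, beside 1.35% of all genes higher and 0.617% lower. SAA1 was slightly lower after co-depletion, at an FPKM ratio of 0.90 to the FoxO3-depleted library, with a counting interval of 0.84 to 0.97 that leaves out 1. The ratio was 0.96 for PTX3 (0.90 to 1.02), 1.10 for SAA2 (0.80 to 1.52) and 0.73 for C3 (0.46 to 1.14), with intervals that include 1. Those of LCN2, at 1.40 (0.40 to 5.45), and CFB, at 3.07 (0.58 to 30.3), were too wide to place. C3 had a log2 ratio of -0.37, and 2.46% of analysed genes lay below it. The difference of SAA1 lies within the spread of the analysed genes, of which 13.9% lay below its log2 ratio of -0.15.

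**Figure D3:**
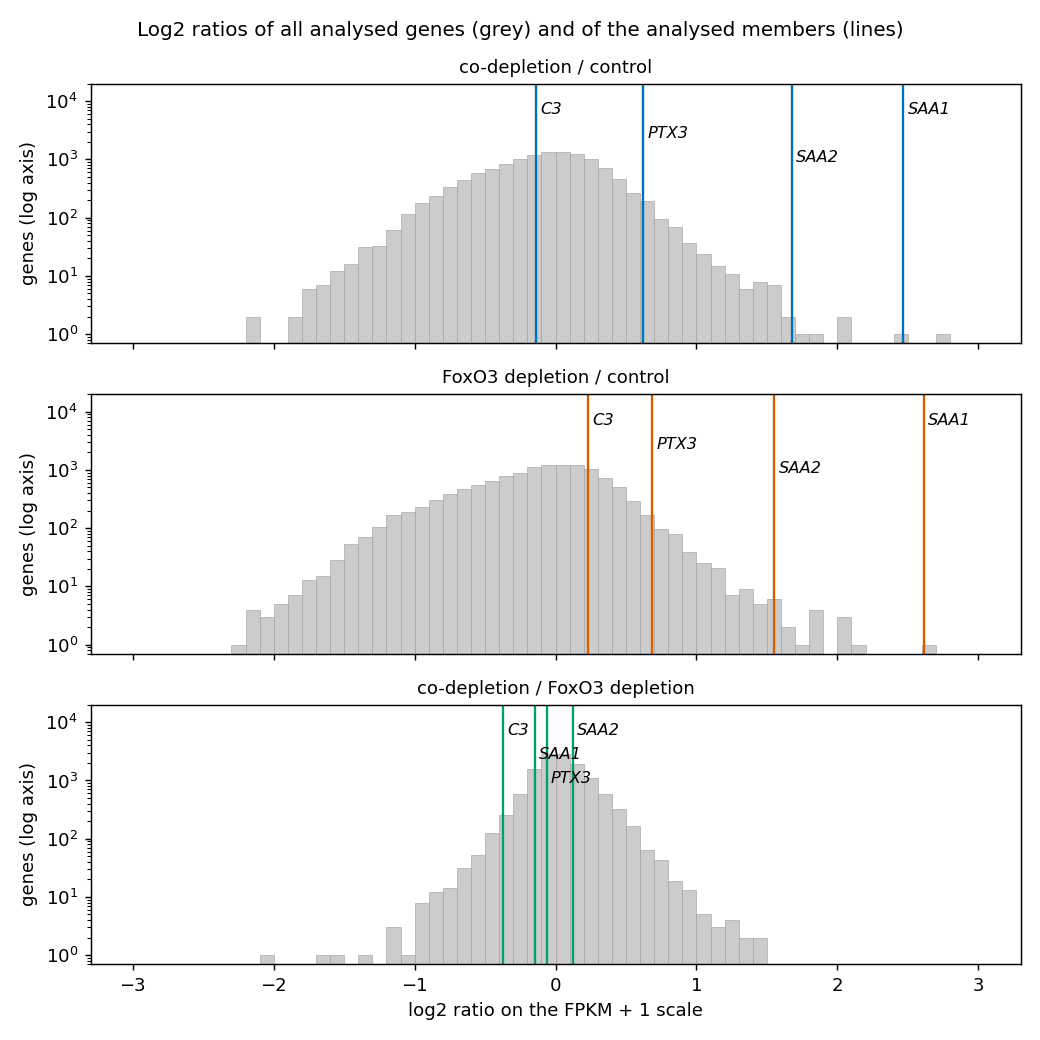
Numbers of analysed genes (vertical log axis) by log2 ratio on the FPKM + 1 scale (horizontal axis, bins of 0.1) in the 3 comparisons, with lines at SAA1, SAA2, PTX3 and C3. SAA1 and SAA2 lie in the far right tail in both comparisons with the control, PTX3 on the right flank and C3 near the centre, and when the depleted libraries are compared with each other C3 lies on the left flank and the other 3 nearer the centre.

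Few genes of the 3 libraries had ratios to control like those of the serum amyloid genes. Likeness was measured as the Euclidean distance between the pairs of log2 ratios to control, over 3 libraries. The genes nearest to SAA1 were the chemokine CXCL10 at a distance of 0.60, IL6 at 0.64 and the matrix glycoprotein THBS1 at 0.91. CXCL10 was at 8.27 FPKM after co-depletion, 4.91 after FoxO3 depletion and 0.41 in the control. Its place depends on the added 1 FPKM, which lowers its ratios far more than those of SAA1. IL6 had plain FPKM ratios to control of 4.71 after co-depletion and 5.0 after FoxO3 depletion, closer to those of SAA1. No other gene lay within 0.25 of SAA1. Within 0.25 of SAA2 lay 6 genes outside the 6 members, the nearest being the receptor GPRC5B at 0.14, the coagulation initiator F3 at 0.15 and C4BPB at 0.18. PTX3 had 517 genes within that distance, among which RARA, a retinoic acid receptor, ATP10A and ATP6V0B were nearest. C3 had 1339, with ATP10D, ERFE and RCAN1 nearest.

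Most other acute-phase genes of the liver were below a mean of 1 FPKM. Of 19 further positive acute-phase genes 2 were analysed and 4 were listed at 0 in every library, among them CRP, the C-reactive protein, and HP, haptoglobin. Both analysed genes are named after their values were seen. SERPINA1, the elastase inhibitor alpha-1-antitrypsin, was at 21.2 FPKM after co-depletion, 16.7 after FoxO3 depletion and 24.2 in the control, and A2M, alpha-2-macroglobulin, at 0.81, 1.12 and 1.29 in the same order. Neither passed 1.5-fold. The FPKM ratio of SERPINA1 to control was 0.87 after co-depletion (0.77 to 0.999) and 0.69 after FoxO3 depletion (0.60 to 0.80). That of A2M, from 9, 11 and 17 reads, was 0.63 after co-depletion (0.25 to 1.48) and 0.87 after FoxO3 depletion (0.37 to 1.97), with intervals that include 1. Of 8 negative acute-phase genes, such as ALB, the albumin gene, 0 reached a mean of 1 FPKM.

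Markers of hepatocytes and adipocytes were low, and some markers of leukocytes and fibroblasts were expressed. Of 9 hepatocyte markers 0 reached a mean of 1 FPKM, and their summed level was 1.45 FPKM after co-depletion, 0.78 after FoxO3 depletion and 0.94 in the control, with APOA2, APOH and TTR listed at 0. Of 12 leukocyte markers 3 reached it, CD14, CSF1R and LAPTM5, and 7 were listed at 0 (CD68, AIF1, MPO, ELANE, CSF3R, FCGR3B and CD3E). Their summed level was 67.5 FPKM after co-depletion, 69.2 after FoxO3 depletion and 77.4 in the control. LAPTM5 made up most of that sum, at 56.9 FPKM after co-depletion, 59.3 after FoxO3 depletion and 66.5 in the control. CSF1R was also lower than in the control, at 1.62 FPKM after co-depletion, 1.48 after FoxO3 depletion and 3.75 in the control. CD14 alone of the 3 was above the control, at 8.59 FPKM after co-depletion, 8.09 after FoxO3 depletion and 6.76 in the control. Of 7 fibroblast markers 3 reached it, COL1A1, COL1A2 and PDGFRB, and their summed level was 52.7 FPKM after co-depletion, 54.7 after FoxO3 depletion and 30.4 in the control, while COL3A1, DCN, LUM and PDGFRA stayed under 0.36 FPKM. The part of the leukocyte and fibroblast markers in the levels of the members was not tested. Adipocyte markers summed to at most 0.11 FPKM, with ADIPOQ, FABP4 and LEP listed at 0, and of 4 endothelial markers listed KDR alone reached 1 FPKM.

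The complement genes around C3 and CFB showed no common direction. Of 23 other complement components 6 were analysed, and by 1.5-fold 0 were higher and 1 lower after co-depletion, and 0 higher and 2 lower after FoxO3 depletion. Beside these counts, 4.02% of all analysed genes were higher and 12.3% lower after co-depletion, and 4.0% higher and 16.7% lower after FoxO3 depletion. C5, from which the terminal attack pathway starts, was at 1.41 FPKM after co-depletion, 1.54 after FoxO3 depletion and 4.63 in the control, and both depleted libraries were lower. GC adjustment brought its log2 ratio for co-depletion to -0.74 in place of -1.22, and that for FoxO3 depletion to -0.52, inside 1.5-fold, in place of -1.15. CFP, or properdin, which stabilises the alternative pathway convertase, was at 14.2 FPKM after co-depletion, 10.2 after FoxO3 depletion and 17.8 in the control. The genes of C1q, which starts the classical pathway, were listed at 0 in every library.

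Of 19 complement regulators and receptors 8 were analysed, of which 2 were higher and 2 lower after co-depletion, and 2 higher and 3 lower after FoxO3 depletion. All analysed genes gave 4.02% higher and 12.3% lower after co-depletion, and 4.0% and 16.7% after FoxO3 depletion. After GC adjustment 3 were higher and 1 lower after co-depletion, and 2 higher and 1 lower after FoxO3 depletion. The adjusted shares over all analysed genes were 4.51% and 5.67% after co-depletion, and 5.78% and 8.45% after FoxO3 depletion. C4BPB, the beta chain of the C4b-binding protein, was at 118.5 FPKM after co-depletion, 125.3 after FoxO3 depletion and 41.1 in the control, a ratio to control of 2.88 (2.62 to 3.17) and 3.04 (2.76 to 3.36). Its alpha chain partner C4BPA was listed at 0. CD55, which speeds the decay of C3 convertases on the cell surface, was at 188.0 FPKM after co-depletion, 173.4 after FoxO3 depletion and 115.0 in the control. CD59 and CD46 were lower than in the control, CD46 only before GC adjustment. CD59, which blocks the attack complex, was at 295.7, 277.1 and 458.9 FPKM in the same order, and CD46, a cofactor for C3b cleavage, at 58.1, 52.1 and 87.8 FPKM. After GC adjustment the log2 ratios of CD59 were -0.59 and -0.68, whereas those of CD46 were -0.03 and 0.01. C1QBP, a mitochondrial protein that also binds C1q, was at 338.5, 377.9 and 274.3 FPKM and did not pass 1.5-fold.

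**Figure D4:**
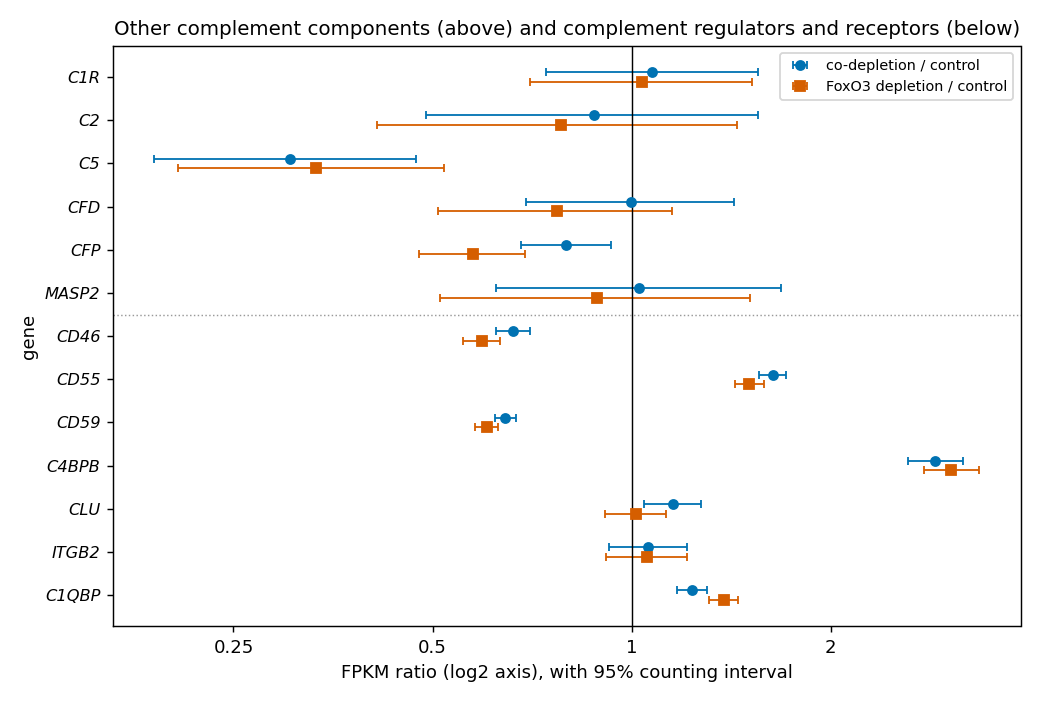
FPKM ratios to control (horizontal log2 axis) of analysed complement components and of complement regulators and receptors, for co-depletion (circles) and FoxO3 depletion (squares), with 95% exact counting intervals. C4BPB and CD55 lie right of 1, C5, CD46 and CD59 left of it, and the intervals of C1R, C2, CFD and MASP2 include 1.

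Among the cytokines that induce acute-phase genes, IL6, IL11 and LIF were higher. Of 10 such genes 3 were analysed, and all 3 were at least 1.5-fold higher after both depletions. Of all analysed genes 4.02% were higher after co-depletion and 4.0% after FoxO3 depletion. After GC adjustment LIF was at 0.52 on the log2 scale in the FoxO3-depleted library, inside 1.5-fold. IL6 was at 25.8 FPKM after co-depletion, 27.3 after FoxO3 depletion and 5.46 in the control. IL11 was at 141.3, 166.8 and 57.0 FPKM and LIF at 43.1, 39.8 and 26.2 FPKM in the same order. In each case both depleted libraries exceeded the control. IL1B went the other way at a low level, with 0.09 FPKM after co-depletion, 0 after FoxO3 depletion and 0.70 in the control, from 1, 0 and 9 reads. IL1A and TNF stayed under 0.27 FPKM, and OSM, IL17A and IL22 were listed at 0.

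The receptors of these cytokines were counted in the same way. Of 11 receptor genes 10 were analysed, with 0 higher and 3 lower in each comparison with the control, or 1 lower after GC adjustment. Over all analysed genes 12.3% were lower after co-depletion and 16.7% after FoxO3 depletion, or 5.67% and 8.45% after GC adjustment, so the adjusted count of the receptors is near the background. IL6ST, the signalling subunit gp130 shared by interleukin-6, interleukin-11 and LIF, was at 75.9 FPKM after co-depletion, 56.4 after FoxO3 depletion and 141.8 in the control. GC adjustment brought its log2 ratio for co-depletion to -0.33 in place of -0.89, and that for FoxO3 depletion to -0.55 in place of -1.32. LIFR, the LIF receptor, was at 33.5, 28.7 and 52.7 FPKM and IL11RA, the interleukin-11 receptor, at 1.85, 1.18 and 3.69 FPKM in the same order. After GC adjustment IL11RA was the gene still past 1.5-fold. IL6R, the interleukin-6 receptor, did not reach a mean of 1 FPKM and is named after its values were seen. It was at 0.51 FPKM after co-depletion, 1.38 after FoxO3 depletion and 0.47 in the control, from 11, 26 and 12 reads, so the FoxO3-depleted library alone was high. OSMR and TNFRSF1A, the receptors of oncostatin M and TNF, differed by less than 1.5-fold, at 86.9 and 139.7 FPKM after co-depletion, 100.7 and 136.9 after FoxO3 depletion and 78.6 and 127.4 in the control.

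Of 17 transcription factors and feedback genes of the acute-phase response 15 were analysed. After co-depletion 3 were higher and 0 lower, and after FoxO3 depletion 4 were higher and 0 lower. The shares over all analysed genes were 4.02% higher and 12.3% lower after co-depletion, and 4.0% and 16.7% after FoxO3 depletion. NFKB2, an NF-kB subunit, was at 104.1 FPKM after co-depletion, 101.8 after FoxO3 depletion and 50.5 in the control, a ratio to control of 2.06 (1.92 to 2.22) and 2.02 (1.87 to 2.18). SOCS3, which feeds back on gp130 signalling, was at 64.4, 75.0 and 40.3 FPKM, and CEBPD, a C/EBP factor induced in inflammation, at 13.5, 14.0 and 7.94 FPKM. Both were above the control in each depleted library. RELB, the partner of NFKB2, was at 18.9, 22.7 and 13.0 FPKM and passed 1.5-fold after FoxO3 depletion alone, with log2 ratios to control of 0.51 after co-depletion and 0.76 after FoxO3 depletion. RELA, another NF-kB subunit, was at 158.1, 167.9 and 121.9 FPKM, inside 1.5-fold. STAT3, named after its values were seen, went the other way, at 97.0, 109.7 and 126.9 FPKM. Its ratio to control was 0.76 after co-depletion (0.72 to 0.81) and 0.86 after FoxO3 depletion (0.82 to 0.91), also inside 1.5-fold.

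**Figure D5:**
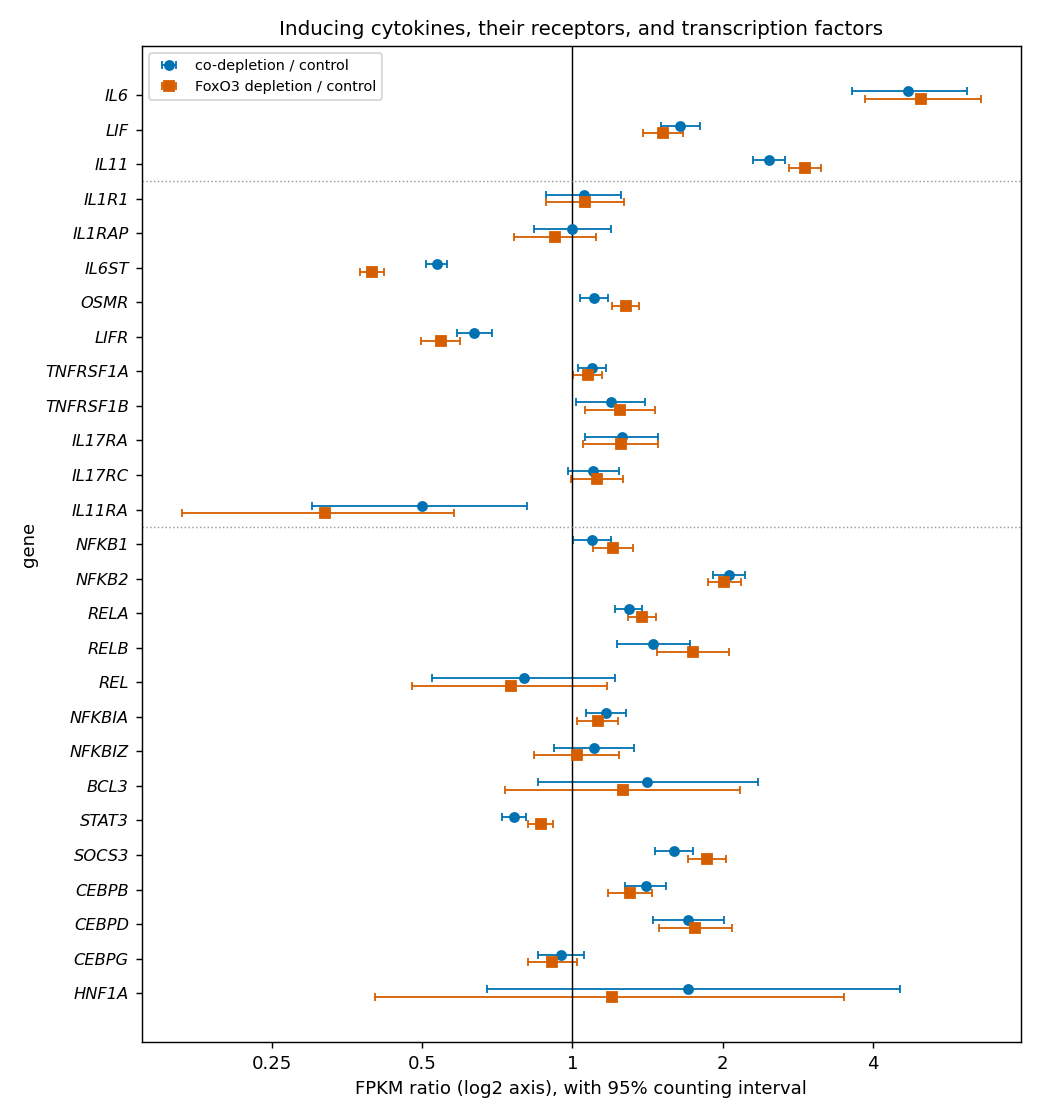
FPKM ratios to control (horizontal log2 axis) of cytokines that induce acute-phase genes, of their receptors and of transcription factors, separated by dotted lines, for co-depletion (circles) and FoxO3 depletion (squares), with 95% exact counting intervals. The 3 cytokines lie right of 1, IL6ST, LIFR and IL11RA left of it, and NFKB2, SOCS3, CEBPD and RELB are the factors farthest to the right with intervals that leave out 1.

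Receptors for serum amyloid A were expressed at low to moderate levels. On the FPKM + 1 scale 0 of the 5 analysed of 8 passed 1.5-fold in either comparison with the control. By the same rule 4.02% of all analysed genes were higher and 12.3% lower after co-depletion, and 4.0% and 16.7% after FoxO3 depletion. The 5 receptors, named after their values were seen, are FPR1, TLR2, TLR4, SCARB1 and AGER. AGER was at 1.69 FPKM after co-depletion, 1.05 after FoxO3 depletion and 0.84 in the control. Its plain FPKM ratio to control was 2.0 after co-depletion (0.96 to 4.32) and 1.24 after FoxO3 depletion (0.52 to 2.96). That of TLR2 was 0.74 after co-depletion (0.60 to 0.91) and 0.81 after FoxO3 depletion (0.65 to 0.997), with intervals that leave out 1. TLR4 was at 16.0 FPKM after co-depletion, 16.6 after FoxO3 depletion and 17.4 in the control, and SCARB1, a lipoprotein receptor, at 21.5, 24.1 and 19.5 FPKM. FPR2, a chemoattractant receptor for serum amyloid A, stayed under 0.25 FPKM in all 3 libraries.

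In a list of other pentraxin genes and of hyaluronan matrix partners of PTX3, NPTXR and HAS3 were below the control and CD44 above it. TNFAIP6, which links PTX3 to hyaluronan, was listed at 0 in every library. Of 11 genes in this list 4 were analysed, with 0 higher and 2 lower in each comparison with the control, also after GC adjustment. The adjusted shares over all analysed genes were 4.51% higher and 5.67% lower after co-depletion, and 5.78% and 8.45% after FoxO3 depletion. The unadjusted shares follow. Over all analysed genes 4.02% were higher and 12.3% lower after co-depletion, and 4.0% and 16.7% after FoxO3 depletion. The hyaluronan synthase HAS3 was at 2.14 FPKM after co-depletion, 1.87 after FoxO3 depletion and 4.74 in the control, and the pentraxin receptor NPTXR at 2.17, 1.56 and 4.04 FPKM. HAS2, another synthase, is named after its values were seen. It was at 1.15, 0.75 and 1.61 FPKM in the same order, inside 1.5-fold on the FPKM + 1 scale. After GC adjustment its log2 ratios were above the control, at 0.29 after co-depletion and 0.20 after FoxO3 depletion. CD44, the hyaluronan receptor, was at 903.6, 935.2 and 630.8 FPKM. Its FPKM ratio to control, 1.43 after co-depletion (1.40 to 1.47) and 1.48 after FoxO3 depletion (1.44 to 1.52), was above 1 but inside 1.5-fold.

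Around LCN2, its receptors SLC22A17 and LRP2 and its partner MMP9 stayed under 0.28 FPKM. Of 15 genes in the list of LCN2 partners and iron handling 11 were analysed, with 1 higher and 3 lower in each comparison with the control. Among all analysed genes 4.02% were higher and 12.3% lower after co-depletion, and 4.0% and 16.7% after FoxO3 depletion. After GC adjustment 1 was higher and 2 lower after co-depletion, and 2 higher and 2 lower after FoxO3 depletion. The adjusted shares over all analysed genes were 4.51% and 5.67% after co-depletion, and 5.78% and 8.45% after FoxO3 depletion. HMOX1, which frees iron from haem, was at 17.5 FPKM after co-depletion, 20.8 after FoxO3 depletion and 9.56 in the control. BDH2, which has been linked to a mammalian siderophore, was at 2.56, 1.03 and 4.92 FPKM, the iron exporter SLC40A1 at 6.38, 6.35 and 12.5 FPKM and the iron regulatory protein gene IREB2 at 20.7, 26.7 and 41.4 FPKM. All 3 were lower in both depleted libraries before GC adjustment. With it, the log2 ratio of IREB2 for FoxO3 depletion was -0.17 in place of -0.62, and that of BDH2 for co-depletion was -0.47 in place of -0.73, both inside 1.5-fold. The ferritin light chain gene FTL was at 1424, 1588 and 1203 FPKM and ACO1 at 73.3, 78.9 and 56.0 FPKM, inside 1.5-fold. Among 15 epithelial antimicrobial genes, which are often induced with LCN2, 2 were analysed and 9 were listed at 0, S100A8 and S100A9 included. After co-depletion 0 were higher and 0 lower, and after FoxO3 depletion 0 were higher and 2 lower, or 0 after GC adjustment. LYZ, lysozyme, was at 1.24, 0.51 and 1.5 FPKM and TCN1 at 3.23, 1.97 and 3.83 FPKM, from at most 21 reads in a library.

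The genes beside the other members were expressed at levels unlike theirs. NELFE, a subunit of an elongation factor, adjoins CFB and was at 98.7 FPKM after co-depletion, 91.9 after FoxO3 depletion and 108.4 in the control. GPR108, beside C3, was at 47.0 FPKM after co-depletion, 45.4 after FoxO3 depletion and 56.1 in the control, and TNFSF14 on its other side was listed at 0. PTGES2, a prostaglandin synthase near LCN2, was at 70.4 FPKM after co-depletion, 74.0 after FoxO3 depletion and 59.4 in the control. NELFE, GPR108 and PTGES2 did not pass 1.5-fold, and TNFSF14 at 0 could not. Of the neighbours given earlier, VEPH1 was lower by that rule in both comparisons with the control. Its log2 ratios were -0.94 after co-depletion and -0.89 after FoxO3 depletion. HPS5 was higher by it after FoxO3 depletion. All analysed genes gave 4.02% higher and 12.3% lower after co-depletion, and 4.0% and 16.7% after FoxO3 depletion. CFB and LCN2 were far below NELFE and PTGES2 in FPKM in each library.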

How the data were processed

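RNA was sequenced from 3 MDA-MB-231 cultures, 1 library per group, grouped by title and design text. The authors deposited FPKM values per Ensembl gene. TopHat2 2.0.9 was used, per the submitters' processing notes. Nothing read here states the read counter, the FPKM tool, the genome build, the annotation or whether strand was used, so overlapping genes cannot be told apart.

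GENCODE 29 gave names, transcript lengths and GC content for 45342 of 48162 IDs. The 12649 named genes with a mean of at least 1 FPKM were analysed. Library totals were the commonest total at which FPKM and length give 1 read among genes with a single transcript, within a relative tolerance of 1e-06. Whole reads were the smallest set, of up to 60000 reads, in the ratio of FPKM times total. They were found for 99.95% of 2060 genes and 1.6% of 500 random values. The lengths implied for the 6 members lay between 0.9995 and 1.19 times the GENCODE mean. Reads can be too low by a common factor, most visibly for BCL3, whose interval is then too wide. Both steps were tested on simulated data.

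Ratios were log2 of (FPKM + 1) over (FPKM + 1), and calls were made at 1.5-fold, with no test. GC adjustment subtracted the running median ratio over 50 bins. The members and gene lists were chosen with earlier results of these data known. Named are the members, FOXO3, GMNN, list genes past 1.5-fold against control or with a mean of at least 50 FPKM (up to 6 per list, largest ratios first), the 3 genes nearest each analysed member and adjacent genes. STAT3, other genes listed at 0 or low, and the receptors for serum amyloid A were named after their values were seen. Some list genes are counted but their values are not reported here. Alternatives were a pseudocount of 0.1 or 0.5, a minimum mean of 5 FPKM or none, size rules of 2-fold and 3-fold, rescaling by the median ratio or to TPM, GC adjustment, and the sum of SAA1 and SAA2. Python 3.11.15, pandas 2.3.3 and scipy 1.17.1 were used.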

Additional observations from a re-analysis of the deposited data

How the results depend on the processing

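No paired analysis was possible because each group holds 1 library, and no library could be left out. The count of 3 members higher than the control fell to 1 at a 3-fold size rule after FoxO3 depletion, where SAA1 alone passed. Under the other alternatives it stayed within 1.5 times the count reported, at 2 or 3. Replaced by the sum of both copies, the log2 ratio of SAA2 to control was 2.44 after co-depletion and 2.57 after FoxO3 depletion. With a pseudocount of 0.1 the log2 ratio of LCN2 to control was 1.37 after co-depletion and 0.94 after FoxO3 depletion, and that of CFB was -1.13 for FoxO3 depletion over control and 1.18 for co-depletion over FoxO3 depletion. The pseudocount sets these values, since both genes rest on 8 reads or fewer in each library. Of 120 alternative values 113 stayed within 1.5 times the count or within a counting interval on the FPKM + 1 scale, and 0 reversed. For low genes that interval is narrower than the one given above for the FPKM ratio. For LCN2 after co-depletion it ran from -0.14 to 1.01 in log2. The log2 values that left it stayed inside the intervals given for the FPKM ratios. Depth limits statements on C3, CFB and LCN2, and the absence of replicates limits all of them.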
